A study of Homo sapiens with 3 samples.

Results

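Resistant clone 2 is a subline of HCC827 cells that was set against its parental line here, with 1 microarray on each side. The comparison uses 2 of the 3 arrays of the study, and the array of a sister subline, resistant clone 1, serves to show which differences clone 2 has by itself. The clone 1 array also entered the normalization and the choice of probes. HCC827 is a human lung adenocarcinoma line that carries an activating EGFR mutation. Clone 2 (labelled HCC827-BR2) and clone 1 (HCC827-BR1) are labelled resistant to BIBW2992, the compound also called afatinib, which binds the kinases EGFR and ERBB2 covalently. Both came out of selection under stepwise rising BIBW2992, up to 2 µM over 3 to 4 months, and each is a single clone. The parental cells (HCC827) are labelled sensitive to BIBW2992. Whether the clones were in drug when RNA was taken is not given in the labels. Parental cells are not labelled as cloned or selected, so that the effects of selection, cloning, time in culture and any remaining drug cannot be told apart.

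EGFR is a receptor tyrosine kinase that, on binding ligand or when mutated, drives the ERK and AKT pathways. Cells that depend on it can be resistant to EGFR inhibitors through changes in the receptor, through signals of other receptors, or along with loss of epithelial character. Sublines grown from single cells also carry whatever differences their founder cells had, in gene regulation and in chromosome content.

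A gene is represented by the brightest of its probes that exceeded background on at least 1 array, and its value is a normalized log2 intensity. Values describe 1 gene across arrays and are not compared between genes. Where a side was below background, the lowest signal above background on that array took its place and the fold is given as at least that large. With 1 array a side there is no replicate error, no test was possible, and no gene is called significant. As a measure of the spread between probes, the differences shown by different probes of one gene had an SD of 0.42 on the log2 scale over 2434 probe pairs. Both probes of a pair were read on the same arrays, so that variation between arrays or cultures is not included. Among 576 probes of genes taken as silent in lung cells, the difference of clone 2 from parental cells had an SD of 0.30, and 1 probe was 2-fold off. The arrays resembled each other in depth, with 33.4%, 34.4% and 34.2% of 48803 probes above background in clone 2, clone 1 and parental cells. Across genes, the log2 values of clone 2 correlated at r = 0.975 with clone 1 and at r = 0.902 with parental cells, where genes are not independent replicates. The endothelial and fibroblast marker lists had 1 of 9 genes each above background on any array, PECAM1 and PDGFRA. For leukocytes this was 6 of 11, namely CD68, LYZ, CD14, FCGR3A, HLA-DRA and CD79A. The pan-leukocyte marker PTPRC, the T cell genes CD3D and CD3E, and CD163 and ITGAM were below background.

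Of 11772 genes with a value, 738 (6.27%) were at least 2-fold higher in clone 2 than in parental cells and 866 (7.36%) at least 2-fold lower, together 13.6%. For clone 1 the counts were 748 (6.35%) higher and 784 (6.66%) lower. Both clones are set against the same parental array. The clones were at least 2-fold off in the same direction for 506 higher and 572 lower genes, and clone 1 was off by between 1.5-fold and 2-fold in the same direction for another 149 and 178. The genes of clone 2 alone were defined as those at least 2-fold off in clone 2 and under 1.5-fold off in clone 1. There were 80 such genes higher (0.680% of those with a value) and 113 lower (0.960%), or 193 in all (1.64%). Because both contrasts chose these genes, their values are given as a description.

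**Figure D1:**
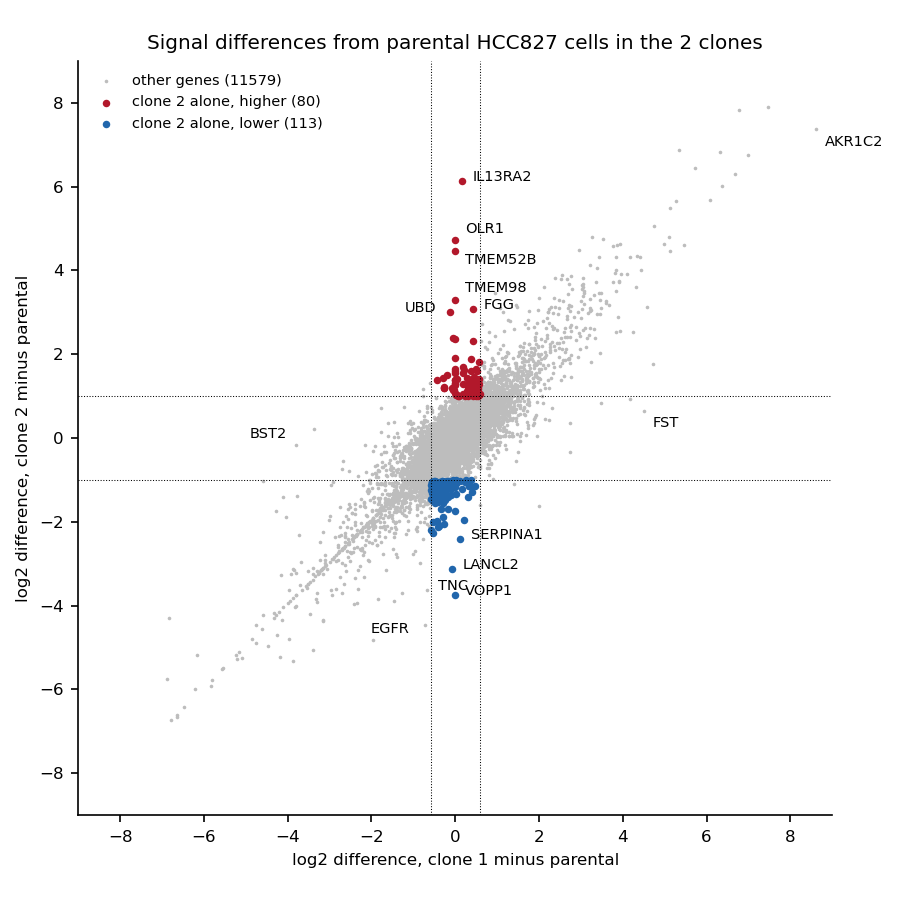
Each point is 1 of 11772 genes, with the log2 difference of clone 1 from parental cells on the horizontal axis and that of clone 2 on the vertical axis. Dotted lines mark 2-fold for clone 2 and 1.5-fold for clone 1, and the coloured points are the 80 genes higher and 113 genes lower in clone 2 alone; values below background were set to the array's floor.

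By median, the higher genes of clone 2 alone stood 2.38-fold above parental cells in clone 2 and 1.23-fold above them in clone 1. On the lower side the medians were 2.23-fold below parental cells in clone 2 and 1.23-fold below in clone 1. Many of these genes therefore had a smaller difference of the same sign in clone 1, nominally 57 of the 80 higher and 93 of the 113 lower genes. A stricter group, also at least 2-fold apart between the clones, held 43 higher and 51 lower genes. At least 4-fold differences were found for 9 genes in each direction. On the higher side 57 genes were above background in both clone 2 and parental cells and 23 are bounds, since parental cells were below background; on the lower side 107 were measured on both sides and 6 are bounds. The limits are narrow: SRSF1 at 1.0026 and SERINC2 at −1.0036 on the log2 scale lay just inside the 2-fold limit, MPDZ at 0.9979 and TMEM178A at −0.9991 just outside. With regard to clone 1, SRSF2 at 0.58 was just inside and CPSF4 at 0.59 just outside. A total of 60 of the 193 genes were within 0.1 log2 units of the 2-fold limit. Second probes were available for 55 of these genes. Of 39 such probes measured in clone 2 and in parental cells, 38 had the direction of the brightest probe and 22 were also at least 2-fold off. In clone 1, 33 of the 39 were under 1.5-fold off, which the definition of clone 2 alone also asks for.

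The highest genes of clone 2 alone coded for membrane proteins that the other arrays barely showed. IL13RA2, a high-affinity receptor of interleukin-13 with a short cytoplasmic tail, had 11.56 in clone 2, against 5.58 in clone 1 and 4.74, below background, in parental cells. It was at least 70.5-fold higher in clone 2 than in parental cells, while clone 1 was barely above background. Over other processing settings the log2 difference of clone 2 ran between 5.31 and 6.82, and without the floor clone 1 was more than 1.5-fold above parental cells, so that IL13RA2 then left the group. Its partner in the signalling receptor, IL13RA1, was at 10.86 in clone 2, 10.64 in clone 1 and 11.54 in parental cells. OLR1, a lectin-like scavenger receptor for oxidised lipoproteins, had 10.16 in clone 2, against 5.09 in clone 1 and 4.87 in parental cells, both below background. That put it at least 26.7-fold above parental cells. TMEM52B, a small membrane protein, had 9.87 in clone 2, against 5.41 and 4.53 in clone 1 and parental cells, again both below background and at least 21.9-fold apart from parental cells. Without the floor, TMEM52B too was more than 1.5-fold above parental cells in clone 1 and left the group. In the RefSeq order OLR1 and TMEM52B are next to each other on the short arm of chromosome 12, with 0 protein-coding genes between them. The gene beyond TMEM52B, GABARAPL1 of the autophagy pathway, was higher in both clones (11.41 in clone 2, 11.18 in clone 1 and 9.53 in parental cells). The neighbours on the OLR1 side, CLEC7A, CLEC1A and CLEC9A, had no value here. TMEM98, a membrane protein, had 8.71 in clone 2, against 4.65 in clone 1 and 4.67 in parental cells, or at least 9.78-fold more; another of its probes was near the floor on each array.

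Other receptors and signalling proteins of the group were nearer to background. GHR, the growth hormone receptor, had 7.78 in clone 2, against 4.92 in clone 1 and 4.58 in parental cells, both below background, and was at least 5.12-fold higher. EPHA4, an ephrin receptor kinase, had 7.07 in clone 2, 5.91 in clone 1 and 4.90 in parental cells, or at least 3.14-fold more than in parental cells. LAYN, a hyaluronan receptor, was at least 3.78-fold higher, with clone 1 and parental cells both below background. Of the transcription factors, NKX2-2 was at least 3.68-fold, SOX18 at least 3.12-fold and SATB1 at least 2.62-fold higher, and GATA2, at 7.95 in clone 2, 6.72 in clone 1 and 6.14 in parental cells, was 3.50-fold higher. NKX2-2 is best known from neural and pancreatic endocrine cells, SOX18 from endothelium, SATB1 from T cells and GATA2 from blood progenitors. For EPHA4 and NKX2-2 clone 1 was above background and parental cells were not, so their clone 1 fold is a bound as well. Without the floor both were more than 1.5-fold above parental cells in clone 1 and left the group. PARM1 was 3.01-fold and NOSTRIN, an adaptor that binds endothelial nitric oxide synthase, 2.95-fold higher, and SAMD5, below background in parental cells, at least 2.96-fold.

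**Figure D2:**
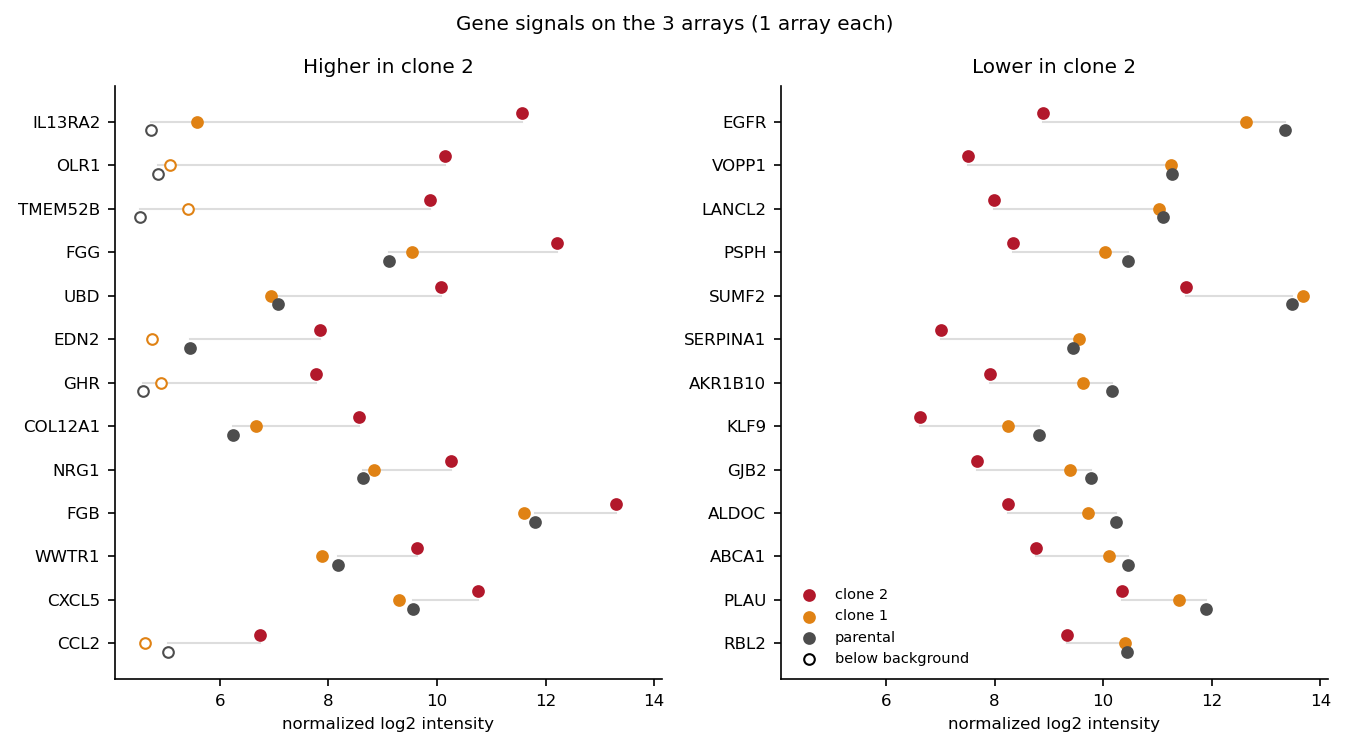
Normalized log2 intensity (horizontal axis) of 13 genes higher and 13 genes lower in clone 2 (vertical axis), with 1 point for each of clone 2, clone 1 and parental cells; open points were below background. All but EGFR belong to clone 2 alone, whose definition sets clone 2 apart and, with the floor, keeps clone 1 within 1.5-fold of parental cells. Clone 2 stands away from parental cells by at least 6.14 log2 units for IL13RA2 and by 4.45 for EGFR, which is shown for reference.

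Secreted liver-type proteins differed in both directions. FGG, the gamma chain of fibrinogen, had 12.20 in clone 2, against 9.55 in clone 1 and 9.12 in parental cells, and was 8.49-fold higher in clone 2. A second FGG probe had 9.32 in clone 2, 6.76 in clone 1 and 6.55 in parental cells. FGB, the beta chain, had 13.30 in clone 2, against 11.59 in clone 1 and 11.80 in parental cells, a 2.83-fold difference, and its second probe had 11.31, 9.98 and 9.74 in the same order. Clone 2 was thus the highest of the arrays with each of these probes. FGA, the alpha chain, whose gene lies between those of FGB and FGG, was at 9.31 in clone 2, 8.43 in clone 1 and 8.77 in parental cells, which is under 2-fold. SERPINA1, the liver's main serum protease inhibitor (alpha-1 antitrypsin), went the other way, with 7.02 in clone 2, against 9.56 in clone 1 and 9.44 in parental cells, or 5.35-fold lower. A second SERPINA1 probe had 6.88 in clone 2, 9.43 in clone 1 and 8.92 in parental cells. CRP, the C-reactive protein, was at 13.26 in clone 2, 12.20 in clone 1 and 4.79, below background, in parental cells, so that it was higher in both clones.

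UBD, a ubiquitin-like modifier (FAT10) induced by inflammatory cytokines, was next to FGG among the genes of clone 2 alone that were measured in parental cells too. It had 10.07 in clone 2, against 6.95 in clone 1 and 7.06 in parental cells, an 8.02-fold difference. Chemokines of the group were less far off. CXCL5, a neutrophil attractant, had 10.76 in clone 2, 9.31 in clone 1 and 9.57 in parental cells, 2.29-fold higher, and its second probe had 8.75, 7.26 and 7.55 in the same order. Its neighbour CXCL2, which acts on the same receptor, was 2.08-fold higher. The monocyte attractant CCL2 was at least 2.50-fold higher, with clone 1 and parental cells below background. LIF, a cytokine of the interleukin-6 family, was 2.08-fold higher. IL6 itself had 8.78 in clone 2, 7.66 in clone 1 and 6.97 in parental cells; at 1.62-fold in clone 1 it missed the definition. SOCS3, a feedback inhibitor of this pathway, was at 6.41 in clone 2, 5.85 in clone 1 and 5.45 in parental cells, just under 2-fold. Of 38 chemokine, cytokine and NF-kB genes with a value, 9 were at least 2-fold higher and 4 lower in clone 2, against 6.27% higher and 7.36% lower over all genes. In 33 of the 38 clone 2 was above clone 1, against 53.1% of all genes, and 9 of the 38 entered through clone 2 or clone 1 only. A gene below background in both clones counts as above, because the floor was 5.46 in clone 2 and 5.41 in clone 1. The same holds for the 53.1% and for such counts of other lists. The median of this list was 0.27 in clone 2 and −0.16 in clone 1, against a median over all genes of 0.03 in clone 2. Of the 38, 5 were higher in clone 2 alone (IL13RA2, CCL2, CXCL5, CXCL2 and LIF), against 0.680% of all genes. IL13RA2 and CCL2 are bounds. Of these 5, CXCL5 alone stayed in the group under each other processing setting, the filter on all 3 arrays left aside; CXCL2 ran down to 0.89, CCL2 to 0.88 and LIF to 0.71 on the log2 scale.

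Promoters of these genes are shown because the fibrinogen pair and the inflammatory genes stood higher together; the genes and motifs were chosen after the values had been seen. Each line gives the 250 bases before the RefSeq transcription start (assembly GRCh38.p14), read 5′ to 3′ on the gene's strand. For FGG (chr4:154612657-154612906, minus strand) and FGB (chr4:154562730-154562979, plus strand) capitals mark the letters CTGGGAA, those of the interleukin-6 responsive element bound by STAT3. They start 161 bases before the start of FGG and 112 before that of FGB. For CXCL2 (chr4:74099196-74099445), CXCL5 (chr4:73998678-73998927) and UBD (chr6:29559733-29559982), all on the minus strand, capitals mark GGGNNTTTCC, the NF-kB motif, 78, 91 and 53 bases before the start.
FGG: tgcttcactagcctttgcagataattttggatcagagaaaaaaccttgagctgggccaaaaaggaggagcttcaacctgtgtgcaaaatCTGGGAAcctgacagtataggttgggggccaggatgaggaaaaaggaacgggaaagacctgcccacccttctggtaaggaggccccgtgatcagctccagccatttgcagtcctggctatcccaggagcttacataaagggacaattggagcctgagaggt
FGB: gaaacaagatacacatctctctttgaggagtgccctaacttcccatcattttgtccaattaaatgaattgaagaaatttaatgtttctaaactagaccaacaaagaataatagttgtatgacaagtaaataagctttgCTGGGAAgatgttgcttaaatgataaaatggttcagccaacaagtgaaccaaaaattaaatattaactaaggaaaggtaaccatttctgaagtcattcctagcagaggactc
CXCL2: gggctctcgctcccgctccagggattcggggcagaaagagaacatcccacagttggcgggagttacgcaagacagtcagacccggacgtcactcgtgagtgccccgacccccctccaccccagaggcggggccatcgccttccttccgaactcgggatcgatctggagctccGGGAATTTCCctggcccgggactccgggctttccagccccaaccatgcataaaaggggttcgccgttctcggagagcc
CXCL5: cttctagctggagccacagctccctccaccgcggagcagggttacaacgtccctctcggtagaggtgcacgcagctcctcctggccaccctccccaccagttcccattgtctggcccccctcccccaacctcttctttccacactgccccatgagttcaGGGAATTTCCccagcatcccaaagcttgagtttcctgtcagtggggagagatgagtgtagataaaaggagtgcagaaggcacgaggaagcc
UBD: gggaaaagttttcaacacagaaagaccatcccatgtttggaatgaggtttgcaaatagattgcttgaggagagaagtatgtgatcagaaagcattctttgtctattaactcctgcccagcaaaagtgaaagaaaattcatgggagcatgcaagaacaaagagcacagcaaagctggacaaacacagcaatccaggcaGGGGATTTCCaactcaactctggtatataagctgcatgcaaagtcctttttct

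For 5 motifs both strands were searched. The NF-kB letters were in a promoter of 6 of the 58 higher genes of clone 2 alone that had a promoter sequence (10.3%), namely CXCL2, CXCL5, UBD, COL7A1, OXTR and SPPL2A, and in 2.73% of the 9599 genes with a value and a promoter. CTGGGAA was in 10 of the 58 (17.2%), against 12.6% of the 9599. For the STAT letters TTCNNNGAA the shares were 10.3% and 7.70%, and for the AP-1 letters TGANTCA 5.17% and 6.26%. Across all 35093 promoter windows the NF-kB letters were in 1.73% and CTGGGAA in 9.16%. A match of letters is no binding site, and these shares are a description.

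NRG1 was the one ERBB ligand among the genes of clone 2 alone. NRG1, neuregulin 1, binds ERBB3 and ERBB4, and had 10.25 in clone 2, against 8.85 in clone 1 and 8.64 in parental cells, or 3.06-fold more. A second probe had 8.63 in clone 2, 6.65 in clone 1 and 6.43 in parental cells. Another was near the floor of each array. Clone 2 was the highest array with both bright probes, and the others were close to each other. Of the other ligands, HBEGF was higher in both clones (8.22 in clone 2, 7.44 in clone 1 and 5.56 in parental cells), TGFA had a difference of 0.52 in clone 2 and 0.18 in clone 1, and EREG was at 7.65 in clone 2, 8.58 in clone 1 and 8.56 in parental cells. The receptors were lower or near parental levels. ERBB3 had 6.25 in clone 2, 7.61 in clone 1 and 9.01 in parental cells, 6.77-fold lower in clone 2. ERBB2 was at 9.26 in clone 2, 9.61 in clone 1 and 10.92 in parental cells. ERBB4 was close to the floor at 5.92, 5.91 and 5.62 in the same order.

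EGFR itself had 8.90 in clone 2, against 12.63 in clone 1 and 13.35 in parental cells. Clone 2 was therefore 21.9-fold lower than parental cells and clone 1 was 1.65-fold lower, just over the limit that would have placed EGFR among the genes of clone 2 alone. A second probe differed by −2.95 in clone 2 and −0.07 in clone 1, with clone 2 again far below. Another, dim one had 5.16, below background, in clone 2, 5.82 in clone 1 and 5.64 in parental cells. These probes can read different transcripts, which the files do not resolve.

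The genes that follow EGFR on the short arm of chromosome 7, towards the centromere, were low in clone 2 as well. VOPP1 had 7.50 in clone 2, against 11.25 in clone 1 and 11.26 in parental cells, or 13.5-fold less, and its second probe had 6.96, 10.47 and 10.37 in the same order. LANCL2 had 7.99 in clone 2, against 11.03 in clone 1 and 11.10 in parental cells, 8.69-fold less. For both genes clone 1 and parental cells were nearly equal. PSPH, the last enzyme of serine synthesis, was 4.37-fold lower, MRPS17, a mitochondrial ribosomal protein, 4.14-fold, and NIPSNAP2 3.93-fold lower. SUMF2 was 3.85-fold lower and CHCHD2, a mitochondrial protein, 2.08-fold lower. Between them ZNF713 was at −0.58 and CCT6A, a chaperonin subunit, at −0.89 on the log2 scale, both short of 2-fold. Of 11 genes with a value from EGFR to CHCHD2, 10 were lower in clone 2 than in clone 1, against 46.8% of all genes. The other, PHKG1, was below background in clone 1 and at 0.04 in clone 2. By median the 10 were off by −2.01 in clone 2 and by −0.17 in clone 1. Of these 10 genes, 7 belong to clone 2 alone, whose definition already sets clone 2 low and clone 1 near parental cells. The values of the run are therefore a description. On the other side of EGFR no such run was seen: COBL was at −0.64, GRB10 at 0.04, DDC at −0.77, FIGNL1 at 0.37 and UPP1 at −1.86. DDC and UPP1 were lower still in clone 1, at −1.03 and −2.61. The 15 genes before EGFR had a median of 0.04 in clone 2 and −0.22 in clone 1.

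Most genes of 16q and 7q, the long arms of chromosomes 16 and 7, were lower in clone 2 than in clone 1. Over genes above background on all 3 arrays, 16q (204 genes) had a median difference of −0.48 in clone 2 and 0.19 in clone 1, and 95.1% of its genes were lower in clone 2 than in clone 1. On 7q (307 genes) the medians were −0.44 in clone 2 and 0.00 in clone 1, with 87.6% of genes lower in clone 2 than in clone 1. By comparison 16p had 0.15 in clone 2 and 0.14 in clone 1, and the arms other than 7p, 7q and 16q together had 0.05 and 0.02, with 47.2% of genes lower in clone 2 than in clone 1. Among these, 4p had −0.20 and 0.05, with 80.4% lower in clone 2 than in clone 1. The whole of 7p ran the other way, with −0.24 in clone 2 and −0.40 in clone 1 and 34.0% lower in clone 2 than in clone 1. Split in gene order into 3 equal parts from the centromere outwards, 16q had medians of −0.31, −0.47 and −0.60 in clone 2, and 7q had −0.60, −0.40 and −0.29. Genes lower in clone 2 alone made up 22 of 241 genes with a value on 16q (9.13%) and 23 of 371 on 7q, against 0.960% of all genes. On the arms other than 7p, 7q and 16q they were 61 of 10962 (0.557%). The arms 16q and 7q were picked after seeing clone 2 below clone 1 there. The definition of clone 2 alone rests on the same gap, so that these shares are a description. Together 7p, 7q and 16q held 52 of the 113 lower genes and 1 of the 80 higher ones, LFNG. DNA copy number was not measured, and its part in these values was not tested.

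**Figure D3:**
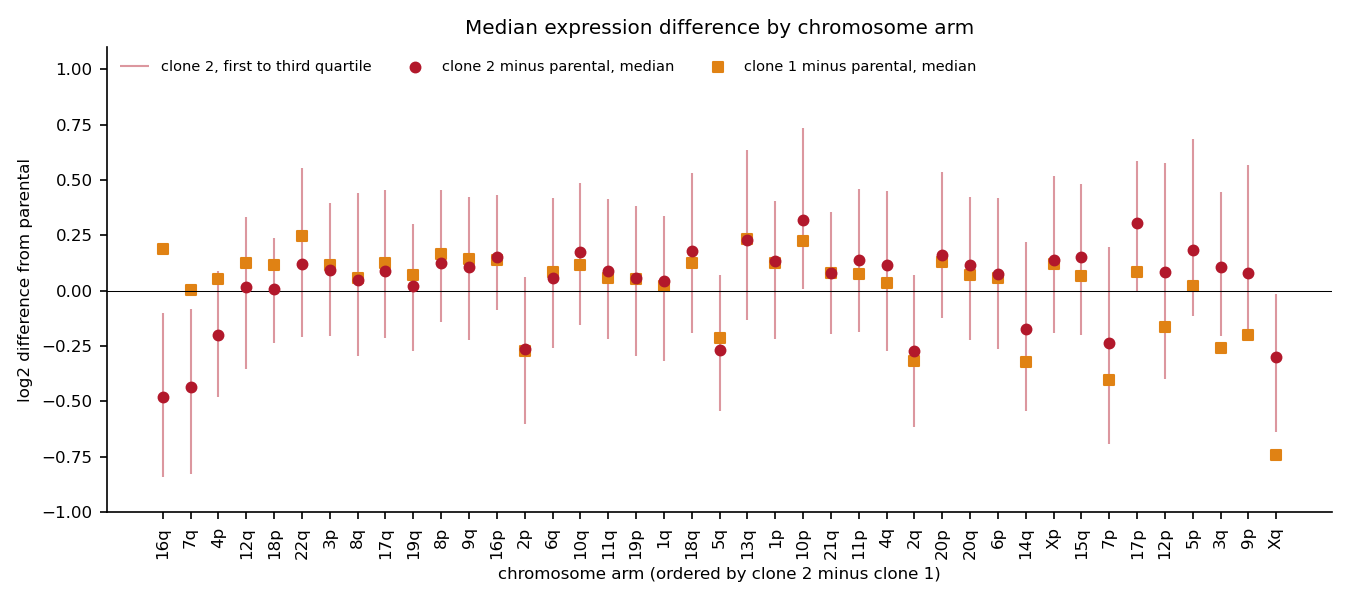
Median log2 difference from parental cells (vertical axis) of the genes on each chromosome arm (horizontal axis, ordered by the gap between the clones) for clone 2 (circles, with lines from the first to the third quartile) and clone 1 (squares). Clone 2 lies farthest below clone 1 on 16q, 7q and 4p, and farthest above it on Xq, 9p and 3q.

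On 16q the lower genes of clone 2 alone included RBL2 (p130), a pocket protein related to RB1, with 9.34 in clone 2, against 10.39 in clone 1 and 10.45 in parental cells. Its neighbours CHD9, a chromatin remodeller, and AKTIP were 2.03-fold and 2.24-fold lower. TERF2, a telomere-binding protein, had 8.62 in clone 2, 9.30 in clone 1 and 9.77 in parental cells. BBS2, part of the BBSome of cilia, was 2.87-fold, CYBA, a subunit of NADPH oxidases, 2.11-fold and CMIP 2.21-fold lower. On 7q the aldo-keto reductases AKR1B10 and AKR1B15, next to each other, were 4.79-fold and 3.68-fold lower; their sequences are close, and a probe may read both. AKR1B10 had 7.91 in clone 2, 9.63 in clone 1 and 10.17 in parental cells. PDK4, which restrains pyruvate oxidation, was 2.51-fold, HIP1 2.76-fold, TRRAP, a scaffold of histone acetyltransferases, 2.08-fold and POR, the electron donor of cytochromes P450, 2.06-fold lower. Each of these genes was under 1.5-fold off in clone 1, as the definition requires.

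Clone 2 stood above clone 1 on other arms. The median differences were −0.30 in clone 2 and −0.74 in clone 1 on Xq, 0.08 and −0.20 on 9p, and 0.11 and −0.26 on 3q. Of the 14q genes above background on all 3 arrays, the first 63, from TTC5 to STRN3, had a median of 0.35 in clone 2 and −0.57 in clone 1, with 60 of the 63 higher in clone 2 than in clone 1. The other 261 had −0.26 in clone 2 and −0.30 in clone 1, and 130 of them were higher in clone 2. The end of the run was chosen after seeing the values. It held 6 of the 10 genes of 14q that were higher in clone 2 alone: RPPH1, METTL17, AJUBA, NGDN, DHRS2 and IPO4. IPO4, a nuclear import receptor, had 10.09 in clone 2, against 8.73 in clone 1 and 8.69 in parental cells, and NGDN, a ribosome assembly factor, had 11.11, 9.64 and 9.91 in the same order. For both, clone 2 was the high array. The interferon regulator IRF9 and the proteasome activator genes PSME1 and PSME2 lie in the same run.

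**Figure D4:**
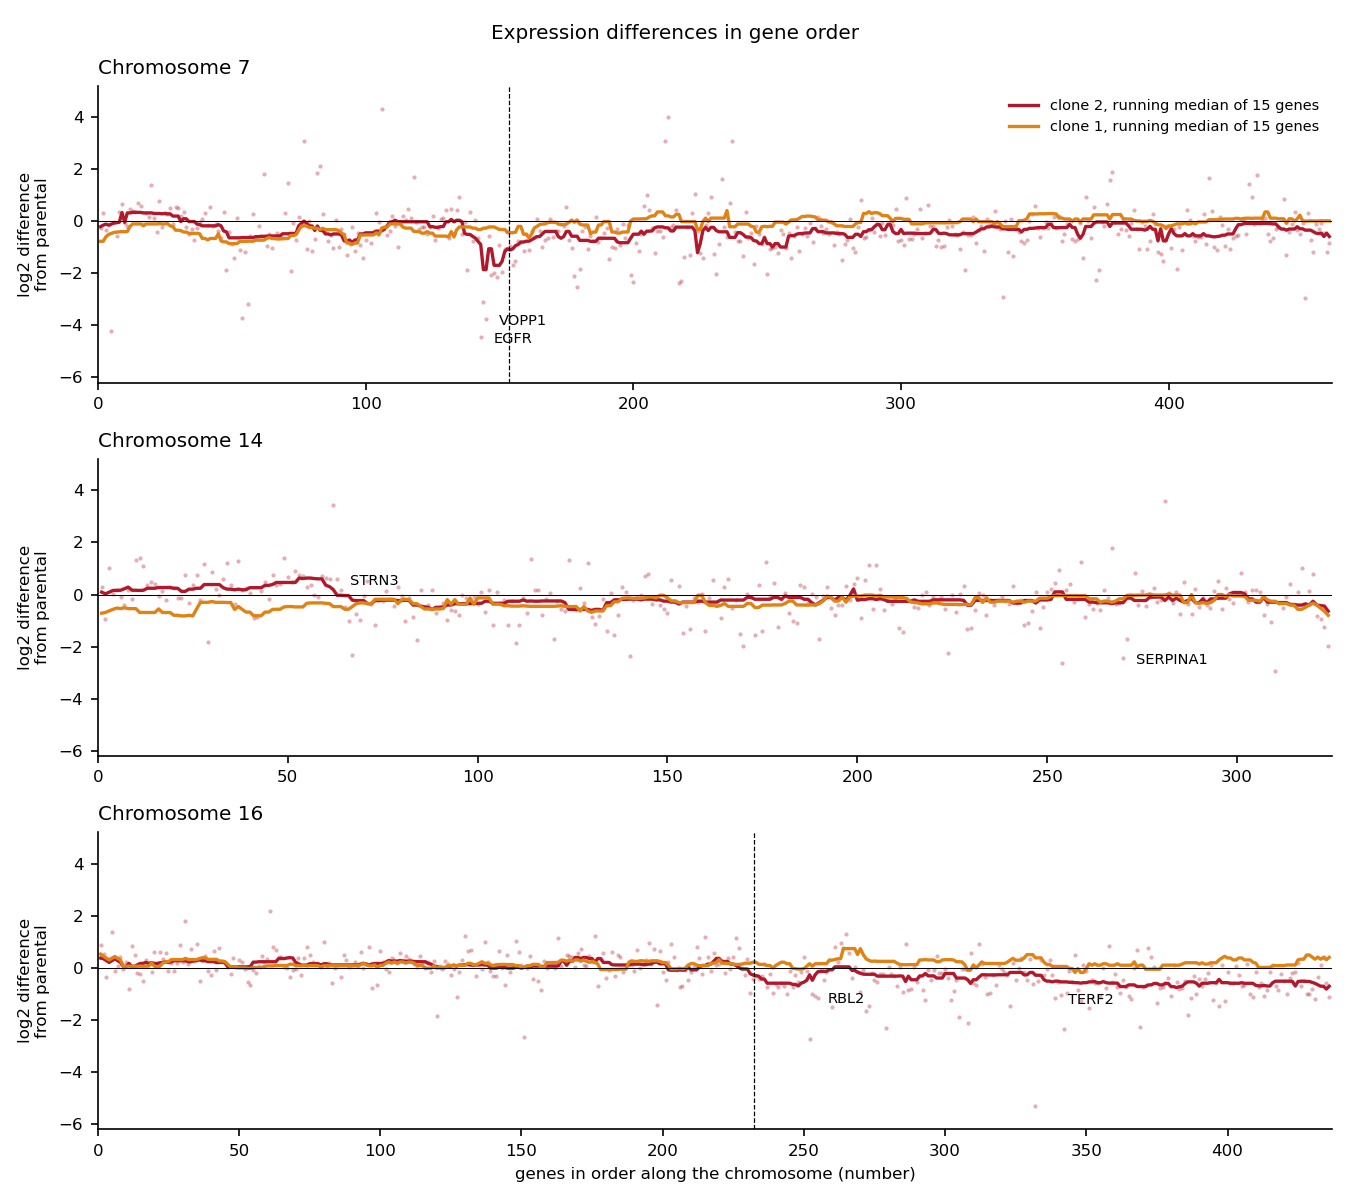
Log2 difference from parental cells (vertical axis) of genes in order along chromosomes 7, 14 and 16 (horizontal axis, gene number), with clone 2 genes as points and running medians over 15 genes for clone 2 and clone 1; the dashed line separates the arms. The clone 2 line drops at EGFR and stays below the clone 1 line along 7q and 16q, and on chromosome 14 it runs above the clone 1 line up to STRN3.

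Genes linked to the YAP and TAZ coactivators, which work through TEAD transcription factors in the Hippo pathway, were also among those of clone 2 alone. WWTR1, the gene of TAZ, had 9.63 in clone 2, against 7.89 in clone 1 and 8.18 in parental cells, 2.72-fold higher. YAP1 was at 11.27 in clone 2, 11.35 in clone 1 and 11.59 in parental cells, and TEAD4 at a difference of 0.76 in clone 2 and 0.31 in clone 1. AJUBA, a LIM protein that restrains the LATS kinases, had 8.22 in clone 2, 7.01 in clone 1 and 7.07 in parental cells. NUAK2, a kinase and target of YAP, had 7.88 in clone 2, 6.94 in clone 1 and 6.87 in parental cells. Over other processing settings the log2 difference of clone 2 ran down to 0.69 for AJUBA and to 0.84 for NUAK2. WWTR1 stayed in the group under each of them, the filter on all 3 arrays left aside. Another AJUBA probe, near the floor, had a difference of 0.22. WWTR1 lies on 3q and AJUBA on 14q, both stretches where clone 2 ran above clone 1. The target ANKRD1 was 8.31-fold higher in clone 2 and 3.94-fold in clone 1, and CCN2 7.84-fold and 5.45-fold. Of 25 genes of this list with a value, 8 were at least 2-fold higher and 2 lower in clone 2, against 6.27% and 7.36% over all genes. The median was 0.41 in clone 2 and 0.04 in clone 1, and 18 were higher in clone 2 than in clone 1, as were 53.1% of all genes. The letters GGAATG of the TEAD motif, on either strand, were in a promoter of 17 of the 58 higher genes (29.3%), NUAK2, AJUBA, EDN1, EDN2 and COL12A1 among them, against 13.4% of the 9599 genes. In the NUAK2 promoter (chr1:205321746-205321995, minus strand, GRCh38.p14), shown because NUAK2 is a gene of clone 2 alone and a known YAP target, capitals mark them 197 and 18 bases before the start.
NUAK2: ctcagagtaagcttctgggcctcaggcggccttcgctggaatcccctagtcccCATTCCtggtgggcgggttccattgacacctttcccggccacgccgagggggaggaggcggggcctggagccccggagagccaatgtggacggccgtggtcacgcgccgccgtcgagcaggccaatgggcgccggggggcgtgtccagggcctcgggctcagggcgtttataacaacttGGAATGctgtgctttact

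EDN2, endothelin 2, had 7.85 in clone 2, 4.75, below background, in clone 1 and 5.46 in parental cells, 5.24-fold higher than parental cells. Without the floor, EDN2 was more than 1.5-fold below parental cells in clone 1 and left the group of clone 2 alone. EDN1, endothelin 1, was 2.33-fold higher in clone 2 and 1.20-fold lower in clone 1. Clone 2 was the high array for both. NPPB, a natriuretic peptide, was at least 2.43-fold higher, and OXTR, the oxytocin receptor, 2.32-fold. These genes were picked for their values and form no list. COL12A1, a fibril-associated collagen, had 8.56 in clone 2, 6.66 in clone 1 and 6.25 in parental cells, 4.96-fold higher, and COL7A1, the anchoring fibril collagen, was 2.17-fold higher. Of 19 collagens and laminins with a value, 6 were higher and 1 lower (6.27% and 7.36% over all genes), with medians of 0.31 in clone 2 and 0.39 in clone 1. TPM1, an actin-binding tropomyosin, had 12.18 in clone 2, 11.17 in clone 1 and 10.72 in parental cells, and a second probe had 11.42, 10.38 and 9.89 in the same order. The crosslinking enzyme LOX was 2.49-fold higher in clone 2 and 1.52-fold lower in clone 1. PLAU, the urokinase plasminogen activator, was 2.93-fold lower in clone 2 and its receptor PLAUR was lower in both clones (−1.70 in clone 2 and −0.91 in clone 1).

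Lower genes on other arms were of mixed function. KLF9, a transcription factor induced by glucocorticoids, had 6.62 in clone 2, 8.24 in clone 1 and 8.82 in parental cells, 4.59-fold lower. GJB2, the gap junction protein connexin 26, had 7.69 in clone 2, 9.39 in clone 1 and 9.78 in parental cells. ALDOC, a glycolytic aldolase, was 4.02-fold lower and HK2, hexokinase 2, 2.08-fold lower, out of 33 glycolysis and hypoxia genes of which 3 were higher and 5 lower, against 6.27% and 7.36% over all genes. The list had medians of 0.19 in clone 2 and 0.41 in clone 1. A second HK2 probe had 7.24 in clone 2, 7.30 in clone 1 and 7.54 in parental cells, a clone 2 difference of only −0.30. Over the processing settings the HK2 difference of clone 2 ran from −1.15 to −0.68. ABCA1, which exports cholesterol, was 3.22-fold lower, with 8.76 in clone 2, 10.11 in clone 1 and 10.45 in parental cells, and the sterol enzyme CYP51A1, on 7q, was 2.31-fold lower. Of 23 sterol and fatty acid synthesis genes, 5 were lower and 1 higher (7.36% and 6.27% over all genes), with medians of −0.56 in clone 2 and −0.28 in clone 1. RERG, a RAS-related growth inhibitor, was 3.22-fold lower and BIK, a pro-apoptotic BH3 protein, 2.32-fold lower. LY96, the MD-2 partner of TLR4, was 2.10-fold lower. LIAS, which makes lipoic acid, and UGDH, which makes UDP-glucuronic acid, are next to each other on 4p and were 2.13-fold and 2.08-fold lower. The bounds on the lower side were small, from TRIM10 at least 2.53-fold lower to BRSK1 at least 2.22-fold and DRC10 at least 2.21-fold lower.

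The proliferation genes that were at least 2-fold off in clone 2 were all higher. Of 31 mitosis genes, 3 were at least 2-fold higher (BIRC5, NUF2 and CENPF) and 0 lower, near the 6.27% over all genes on the higher side. The medians were 0.51 in clone 2 and 0.11 in clone 1, and 27 were higher in clone 2 than in clone 1, against 53.1% of all genes. Of 33 DNA replication genes, 6 were higher and 0 lower (6.27% and 7.36% over all genes), with medians of 0.47 in clone 2 and 0.28 in clone 1. MCM2, a subunit of the replicative helicase, had 10.15 in clone 2, 9.23 in clone 1 and 9.15 in parental cells and was the one gene of these lists in clone 2 alone. At a log2 difference of 1.005 MCM2 was just inside the 2-fold limit, and it ran down to 0.91 over other processing settings. It lies on 3q, where clone 2 ran above clone 1. For scale, 24 housekeeping genes ranged from −1.10 (GUSB, on 7q) to 0.95 in clone 2, with a median of 0.22.

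**Figure D5:**
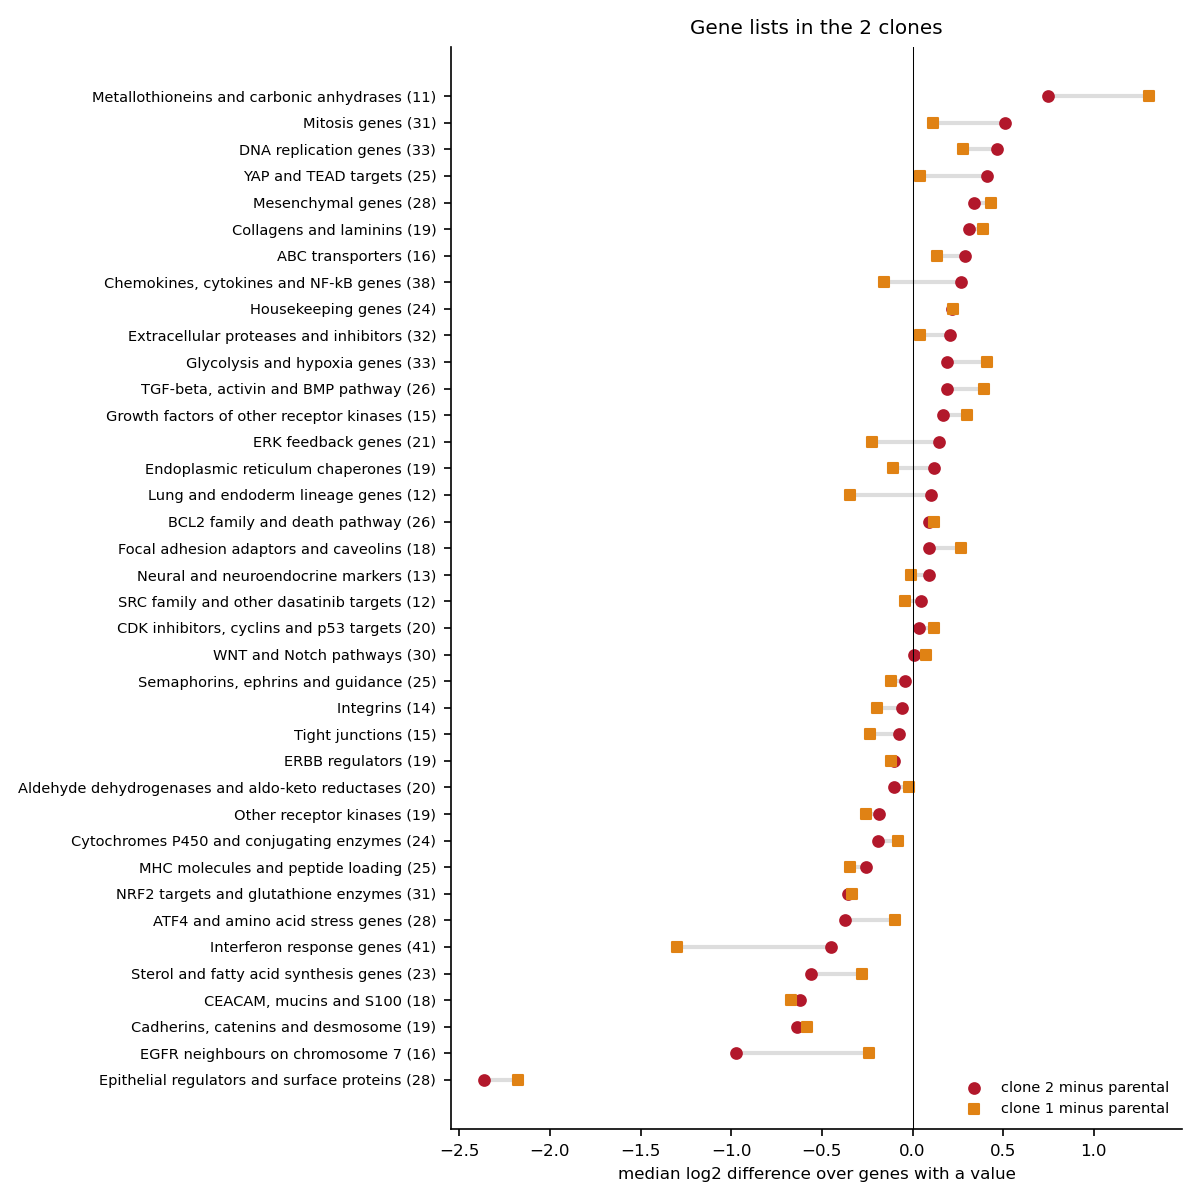
Median log2 difference from parental cells (horizontal axis) of gene lists with at least 10 genes with a value (vertical axis, number of genes in brackets) in clone 2 (circles) and clone 1 (squares). The lists run side by side in the clones, with the widest gaps at the interferon response genes (−0.45 in clone 2 and −1.30 in clone 1) and the EGFR neighbours (−0.97 and −0.24).

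What clone 2 shares with clone 1 is larger in size than what it shows alone. The 6 highest genes measured on both sides, AKR1C2, GLDC, TMEM158, SLC3A1, NCAM2 and VIM, were 24.6-fold to 165-fold higher in clone 2. The highest, AKR1C2, had a log2 difference of 7.37 with its brightest probe and of 3.70 as the mean of its probes. The highest bounds, ALDH1A1 and CRP, were at least 238-fold and 229-fold. Each of these genes was at least 15-fold higher in clone 1 too, and all values are read against the same parental array. AKR1C2, an aldo-keto reductase, had 13.07 in clone 2, 14.32 in clone 1 and 5.70 in parental cells. VIM, the intermediate filament of mesenchymal cells, had 13.51 in clone 2, 13.88 in clone 1 and 8.89 in parental cells. At the low end, 20 of 28 epithelial regulators and surface proteins were at least 2-fold lower and 0 higher (7.36% and 6.27% over all genes), with medians of −2.36 in clone 2 and −2.18 in clone 1. CDH1, E-cadherin, had 7.78 in clone 2, 9.24 in clone 1 and 13.11 in parental cells, and EPCAM 8.99, 10.64 and 14.05 in the same order. For these 2 genes clone 2 was lower than clone 1 by more than 2-fold. KRT19, a keratin of simple epithelia, had 9.73 in clone 2, 12.15 in clone 1 and 13.61 in parental cells. TNC, an extracellular matrix protein, stood 12.4-fold below parental cells in clone 2, against 1.58-fold in clone 1. For EGR1, an early target of ERK, these folds were 28.4 and 3.87.

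Some genes were near parental levels in clone 2 and far off in clone 1. Between the clones, 197 genes (1.67%) were at least 2-fold higher and 210 (1.78%) at least 2-fold lower in clone 2. BST2, an interferon-induced antiviral protein, had 9.39 in clone 2, against 5.75 in clone 1 and 9.55 in parental cells. MX1, a GTPase induced by interferon, had 11.28 in clone 2, 9.16 in clone 1 and 11.83 in parental cells. IRF9, part of the factor that turns on interferon genes, had 11.20 in clone 2, 9.24 in clone 1 and 10.85 in parental cells. In each, clone 1 was the low array and clone 2 was within 1.5-fold of parental cells. Of 41 interferon response genes with a value, 37 were higher in clone 2 than in clone 1, against 53.1% of all genes; 17 were at least 2-fold lower than parental cells in clone 2 and 26 in clone 1, against 7.36% and 6.66% of all genes. SAMD9 was the one of them in clone 2 alone, 2.38-fold lower in clone 2, and SAMD9L was 4.04-fold lower in clone 2 and 1.68-fold in clone 1; both lie on 7q. FST, follistatin, an activin antagonist, had 7.88 in clone 2, against 11.75 in clone 1 and 7.23 in parental cells, and VGF, a neuropeptide precursor, had 7.48, 10.55 and 7.80 in the same order. PTGS2, the inducible cyclooxygenase, was at 9.64 in clone 2, 7.92 in clone 1 and 9.82 in parental cells.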

How the data were processed

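Total RNA of clone 2, clone 1 and parental cells was run on Illumina HumanHT-12 arrays with a biotin label, 1 array per group, per the labels. The first deposited table gives linear intensity values of 48803 probes, without detection p-values or control probes; the software that made them is not named in the labels. The authors' second table is also a linear intensity, with medians of 59.7, 59.7 and 59.6, for clone 2, clone 1 and parental cells. On the log2 scale it matched the first at r of 0.99995, 0.999995 and 0.99997, and its columns look quantile-normalized, uncentred and not logged; the authors' steps are not stated.

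Background was corrected with normexp without controls (offset 16, limma 3.58.1 in R 4.3.3), followed by log2 and quantile normalization. Background signal was estimated from the dim probes of each array (mode, with the SD of the values below it), and a probe exceeded background at a one-sided p under 0.01, which put the thresholds at signals of 71.4, 66.3 and 70.6 in clone 2, clone 1 and parental cells. Of 576 probes of genes expected to be silent, 3.82% passed on each array. Probes were named from the platform annotation, with symbols updated by Entrez ID through RefSeq (GRCh38.p14): 28098 had 1 gene, 13 several and 20692 were not listed. A named probe entered if above background on 1 or more arrays, and the brightest stood for its gene.

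The log2 difference was taken after setting values below the floor (the lowest normalized signal above background) to it. The floors were 5.46 in clone 2, 5.41 in clone 1 and 5.42 in parental cells. Genes below background in both clones therefore count as higher in clone 2 than in clone 1. A gene was counted if 2-fold off and above background in clone 2 or parental cells. Named were EGFR, the 15 highest and 15 lowest measured genes of clone 2 alone and the 10 highest and lowest bounds, the 6 highest and lowest of all genes in each class, members of 46 gene lists (1199 genes) and chromosome neighbours; genes named for their gap between the clones, and some lower genes of clone 2 alone, were chosen after their values were seen, and provisional symbols were left out of rankings. The genes of interest and the lists were chosen with earlier results of these data known. Motifs were searched in RefSeq promoter windows. The counting steps were tested on simulated data in which bright genes were moved well past the 2-fold limit. That check does not bear on genes near the floor or near a limit. In addition, 10 other settings were tried.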

Additional observations from a re-analysis of the deposited data

Results flagged for a closer look

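CNTNAP2 and PNCK were off by at least 2-fold in opposite directions in the clones. CNTNAP2, a neurexin-family adhesion protein on 7q, had 8.32 in clone 2, 10.80 in clone 1 and 9.41 in parental cells, a difference of −1.09 in clone 2 and 1.39 in clone 1. PNCK, a calcium/calmodulin-dependent kinase on Xq, had 5.85 in clone 2, 9.48 in clone 1 and 7.48 in parental cells, a difference of −1.62 in clone 2 and 2.00 in clone 1. Each rests on 1 probe and 1 array per group, and the difference between the clones was not tested.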

How the results depend on the processing

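With 1 array a side, no array could be left out and precision cannot be measured. No paired analysis was possible because each group has 1 array and the labels give no shared replicate numbers. Over 10 other settings (median scaling, normexp offset 50, no background correction, the authors' processed table, background p under 0.05 or 0.001, the mean of a gene's probes, no floor, probes above background on all 3 arrays, no filter), higher genes numbered 550 to 806 and lower genes 642 to 1021. The genes of clone 2 alone depend on their limits. With clone 1 within 0.32 log2 units there were 42 higher and 55 lower, with clone 1 under 2-fold 232 and 292, and with clone 2 at least 3-fold 19 and 15. Of the settings added after seeing the data, a further 2-fold gap between the clones left 43 and 51, and leaving out chromosome 7 and 16q left 61 lower genes and 79 higher ones. A set of 21 higher and 49 lower genes belonged to clone 2 alone under each of the 10 settings except the filter on all 3 arrays. The EGFR difference was −2.53 as the mean of the 3 entering probes, 1 of them dim, and between −4.54 and −4.36 otherwise. Of 91 named genes, 41 had a value that moved beyond the spread between probes in at least 1 setting and 0 changed sign. Signals near background limit the bounds.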

Other observations

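Of 20705 probes without a single gene name, 3332 exceeded background on at least 1 array; 129 of these were at least 2-fold higher and 160 at least 2-fold lower in clone 2 than in parental cells, and 13 and 27 met the definition of clone 2 alone. They are not named here. Several pairs of genes of clone 2 alone that lie close together had differences of one sign: TMEM98 and CCL2 on chromosome 17, with 2 protein-coding genes between them (at least 9.78-fold and 2.50-fold higher), C2CD4A and TPM1 on chromosome 15, also with 2 between them, and CXCL5 and CXCL2 on chromosome 4, with 1 between them. These pairs were picked after their values were seen, and no test was made.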
